A study of Danio rerio with 18 samples.

Results

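The histone genes of the zebrafish larval liver were taken from the gene symbols: every gene ID whose symbol begins with hist1h, hist2h, h1-, h1f, h2a, h2b, h3c, h3f, h3-, h4c or h4-, with 1 symbol left out by name, and with at least 10 counts over all libraries. The rule gave 21 of the 32105 gene IDs in the files. Of the 23 symbols that matched, 1 was left out by name and 1, H2BK1, had no counts. No symbol stood for more than 1 of the 21 gene IDs. The classes rest on the symbols alone. They gave 10 replication-type genes (6 of H2A and 4 of H3), 7 variant genes and 4 others (h2ax1, h2ax2, hist2h2l and h2af1al). Among the variant genes are those of H2A.Z and H3.3 and the linker histone gene H1-10. No gene named for H2B or H4 was among them, and histone genes that carry a placeholder name instead of a histone symbol fall outside the rule.

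Histones are the proteins around which DNA is wrapped. Replication-type histones are made mainly while a cell copies its DNA, from clustered genes whose messenger RNA ends in a stem-loop and carries no poly(A) tail, and that RNA is destroyed when replication ends. Variant histones such as H3.3 and H2A.Z come from single genes with ordinary polyadenylated RNA and are made throughout the cell cycle and in resting cells. These libraries were made from ribosome-depleted total RNA with random primers, so RNA without a tail was counted as well.

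The study asked how liver RNA differs when the larva lacks uhrf1, which encodes a protein required to keep DNA methylation through replication, and when it is given palbociclib, which blocks the cell-cycle kinases CDK4 and CDK6. All larvae were of the ABNYU strain, came from crosses between uhrf1-hi272 heterozygotes, and carried the transgene Tg(fabp10a:CAAX-EGFP), whose promoter is active in hepatocytes. From 48 hours post fertilization (hpf) they were kept in 0.5% DMSO alone or with 20 µM palbociclib, and at 120 hpf 15 to 20 livers were dissected, genotyped by carcass and pooled by genotype. The 18 libraries are 4 of control larvae in DMSO, 5 of uhrf1-hi272 -/- larvae in DMSO, 4 of control larvae in palbociclib and 5 of uhrf1-hi272 -/- larvae in palbociclib. The hi272 allele is the only uhrf1 mutation in the series, so all mutant libraries share it.

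Libraries held 2467926 to 5199301 counts. The level of uhrf1 itself did not separate the genotypes: in DMSO its mean was 37.8 ± 7.50 counts per 1000000 (CPM; SD, n = 4) for the control label and 46.5 ± 7.55 CPM (SD, n = 5) for the mutant label, and it passed the test in neither treatment, so it does not check the labels. Among markers of the cell types a dissection could hold, all 16 hepatocyte genes were present, and their part of the counts was 5.60% ± 0.627 for control DMSO, 2.72% ± 0.450 for mutant DMSO, 3.87% ± 0.848 for control palbociclib and 3.65% ± 0.494 for mutant palbociclib. Muscle markers (10 of 19 listed genes matched, none at 0) took 2.12% ± 0.543 of the counts in control libraries in DMSO and 3.27% ± 0.455, 3.11% ± 0.567 and 3.42% ± 0.241 in mutant DMSO, control palbociclib and mutant palbociclib libraries. Leukocyte markers (7 of 10 matched, none at 0) took 0.00340% ± 0.000682, 0.0141% ± 0.00282, 0.00451% ± 0.000663 and 0.0113% ± 0.00303 in the same order.

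Transcripts of the 10 replication-type genes were most abundant in mutant livers in DMSO, and lower in palbociclib in either genotype, while the sum of the variant genes differed little between groups. Summed over the 10 genes, the level was 36.8, 18.9, 28.6 and 26.0 CPM in the 4 control libraries in DMSO and 96.7, 74.2, 56.6, 72.9 and 82.4 CPM in the 5 mutant libraries in DMSO. In palbociclib it was 8.38, 17.4, 13.7 and 9.72 CPM in the control libraries and 14.8, 33.7, 23.9, 29.5 and 20.5 CPM in the mutant libraries. Every mutant library in DMSO lay above every other library, and every control library in palbociclib lay below every control library in DMSO.

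The group means of this sum were 27.6 ± 7.36 (SD, n = 4), 76.5 ± 14.6 (SD, n = 5), 12.3 ± 4.07 (SD, n = 4) and 24.5 ± 7.42 CPM (SD, n = 5) for control DMSO, mutant DMSO, control palbociclib and mutant palbociclib. Mutant livers therefore held 2.78 times the control level in DMSO and 1.99 times in palbociclib, and the sum was 2.24-fold lower in palbociclib than in DMSO among control and 3.12-fold lower among mutant livers. The mutant livers in palbociclib, at 14.8 to 33.7 CPM, overlapped the control livers in DMSO, at 18.9 to 36.8 CPM. These sums rest on few counts: 78 to 157 per library in control DMSO, 209 to 343 in mutant DMSO, 36 to 68 in control palbociclib and 65 to 121 in mutant palbociclib. In dissected tissue, fewer cells of a type and less RNA per cell cannot be told apart.

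**Figure D1:**
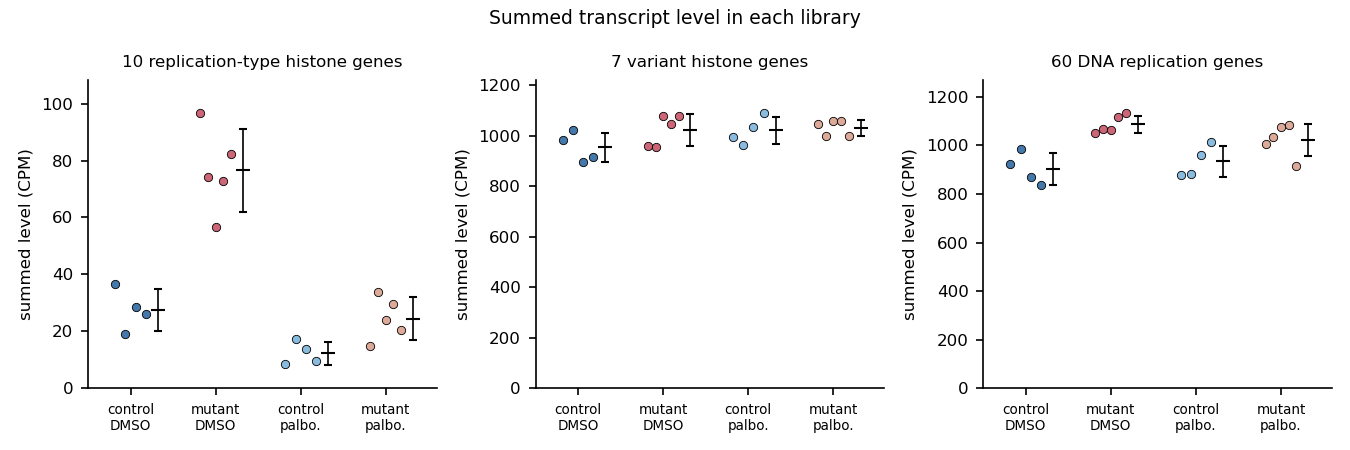
Summed level in CPM (vertical axis) of the 10 replication-type histone genes, the 7 variant histone genes and the 60 genes of a DNA replication list, in each of the 18 libraries by group (horizontal axis); points are libraries and bars the mean ± SD. The mutant DMSO libraries sit between 56.6 and 96.7 CPM in the first panel, above all others, while the ranges of the groups overlap in the second.

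The mean replication-type sum was 27.6, 76.5, 12.3 and 24.5 CPM in control DMSO, mutant DMSO, control palbociclib and mutant palbociclib libraries. The muscle share of the counts was 2.12%, 3.27%, 3.11% and 3.42% in the same order. In DMSO this share differed between the genotypes, so these means do not separate it from genotype. The tests with the muscle share as a covariate are given beside the calls. The leukocyte share was above the control range in mutant livers in both treatments, and its part in the histone levels was not tested. Of its 7 markers 2 were called higher in mutants in each treatment, against 6.72% of all genes tested in DMSO and 0.634% in palbociclib. The median log2 fold change of the 7 was 0.49 in DMSO and 0.23 in palbociclib, and the largest were 9.23 and 6.91. In palbociclib 2 of the 7 were below 0. The hepatocyte share was lowest in mutant livers in DMSO, where the replication-type sum was highest, and its part in the result was not tested either.

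A ratio within the histone genes does not depend on how libraries are scaled. The H3 ratio took only reads on the 4 replication-type H3 genes and 4 H3.3 genes of the rule. H3 genes with placeholder names are not in it, so it is not a share of all H3 reads. Replication-type genes took 3.53%, 1.54%, 2.57% and 1.71% of these reads in the control libraries in DMSO. In the mutant libraries in DMSO they took 6.59%, 4.79%, 3.62%, 3.10% and 3.95%, and the 2 groups overlapped in 1 library of each. Under palbociclib they took 0.694%, 1.58%, 1.17% and 0.397% in control and 0.686%, 2.24%, 1.31%, 1.40% and 1.76% in mutant libraries. The highest share, 6.59% of 2763 reads, had an exact Clopper-Pearson 95% interval of 5.69% to 7.58%, and the lowest, 0.397% of 3020 reads, one of 0.205% to 0.693%.

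Replication-type H2A reads, as a share of those and H2A.Z reads together, separated the groups further. In DMSO the mean share was 31.2% ± 4.39 for control (SD, n = 4) and 59.4% ± 8.4 for mutant livers (SD, n = 5), and in palbociclib it was 15.4% ± 5.59 (SD, n = 4) against 33.6% ± 5.85 (SD, n = 5). The lowest mutant library in DMSO, at 47.1% (exact 95% interval 40.1% to 54.2%), was above the highest control library, at 34.8% (27.5% to 42.7%), and the lowest mutant library in palbociclib, at 28.2%, was above the highest control library there, at 23.3%. Reads were not divided by transcript length, so these shares compare libraries and not the amounts of the proteins. The intervals leave out the spread between pools. They treat reads as independent molecules, which amplified reads are not, so they can be too narrow even for counting error.

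**Figure D2:**
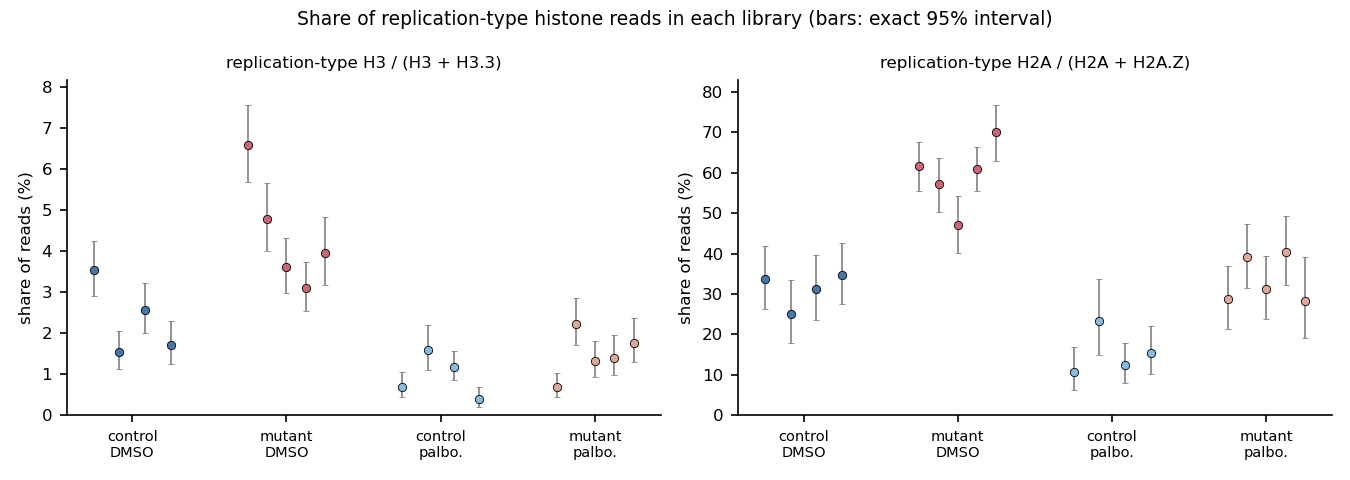
Share of reads in percent (vertical axis) that fell on replication-type genes, in each library by group (horizontal axis). The left panel takes reads on the H3 and H3.3 genes of the rule, without genes of placeholder names. The right panel takes replication-type H2A and H2A.Z reads of the rule. Bars are exact 95% binomial intervals. In the right panel the mutant libraries lie above the control libraries in either treatment, with group means of 59.4% against 31.2% in DMSO.

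Genes were tested across the whole table of 17048 genes, and a gene was called at a Benjamini-Hochberg adjusted p under 0.05 in edgeR's quasi-likelihood test. Of the 21 histone genes 20 were tested; h2af1al, with 10 counts from 2 libraries, was not. Of these, 7 (h2ax2, hist1h2a11, hist1h2a2, hist1h2a3, hist1h2a4, H3C15 and hist2h3ca1) passed the filter on low counts only with the mutant DMSO libraries, where they were high. hist1h2a4 also needed those of mutant palbociclib. Mutant DMSO enters the genotype comparison in DMSO, palbociclib against DMSO in mutants, and the interaction. The counts of genes called, or with groups that did not overlap, are therefore descriptions. So are the signs and medians over the replication-type genes (6 of the 10 entered the test that way). The adjusted p and the group ranges of those 7 genes are to be read in the same way. Near-identical histone copies can share reads, and how the authors' counting treated such reads is not given in the sources used here. The level of a single replication-type gene is therefore less certain than the sum.

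In mutant against control livers in DMSO, 7 of the 20 tested histone genes rose and 0 fell, where 6.72% of all genes tested rose and 10.4% fell (17.1% called in either direction). The 7 were 6 of the 10 replication-type genes and the H3.3 gene h3f3d. All 10 replication-type estimates were above 0, with a median log2 fold change of 1.25 and a range of 0.72 to 3.79, against a median of 0.06 over all genes tested; 6 of the 10 had entered the test through a mutant group. The 7 variant genes had a median of 0.14. For 7 of the 20 genes every mutant library lay above every control library and for 0 below, against 5.83% and 8.24% of all genes tested. Among those 7, h2ax2, hist1h2a11, hist1h2a3 and hist1h2a4 had entered the test through a mutant group. With the muscle share of each library as a covariate the replication-type median was 1.84, and 4 of the 7 calls were kept.

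Among the replication-type H2A genes, whose proteins pair with H2B in the nucleosome, hist1h2a7 (ENSDARG00000099123) had the most reads. It stood at 5.62, 0.728, 2.24 and 6.49 CPM in the control libraries and at 21.1, 13.4, 9.74, 14.1 and 12.7 CPM in the mutant libraries in DMSO, and the groups did not overlap. The log2 fold change was 1.91 (SE 0.407, edgeR adjusted p = 0.000534).

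For hist1h2a11 (ENSDARG00000088686) the control libraries held 0.468, 0.243, 0.249 and 0 CPM, which is 4 counts in all, and the mutant libraries 3.38, 4.07, 1.62, 4.71 and 5.39 CPM, or 65 counts. Every mutant library was higher than every control library. Its fitted log2 fold change, 3.79 (SE 0.800, edgeR adjusted p = 0.000446), was the largest of the histone genes and rests on those 4 control counts. The gene fell below the filter, and so out of the test, when mutant DMSO library 1, 2, 4 or 5 was left out.

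Levels of hist1h2a3 (ENSDARG00000070280) were 1.17, 0.971, 2.99 and 3.38 CPM in control and 7.89, 9.02, 5.14, 11.2 and 16.9 CPM in mutant libraries in DMSO. Those of hist1h2a4 (ENSDARG00000051736) were 0.936, 0.486, 0.746 and 0.519 CPM in control and 2.54, 2.33, 2.44, 5.46 and 3.08 CPM in mutant libraries. Neither gene's groups overlapped, and mutant library 4 stood apart from the other mutants for hist1h2a4. The log2 fold changes were 2.22 (SE 0.502, edgeR adjusted p = 0.00104) for hist1h2a3 and 2.19 (SE 0.668, edgeR adjusted p = 0.0173) for hist1h2a4. Both genes had passed the filter only with libraries of a mutant group, so these values describe the libraries. Neither call held with the muscle share as a covariate, where the log2 values were 2.30 (edgeR adjusted p = 0.0966) and 1.61 (edgeR adjusted p = 0.564). That of hist1h2a4 was also lost without control DMSO library 4 (2.09, edgeR adjusted p = 0.0637), and the gene left the test without mutant DMSO library 3, 4 or 5 or mutant palbociclib library 1 or 4, and when only the 2 groups were fitted.

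The other pair of H2A genes did not pass. hist1h2a2 ranged from 0.468 to 2.49 CPM in control and from 1.54 to 5.70 CPM in mutant livers, with a log2 value of 1.06 (edgeR adjusted p = 0.295). hist1h2a8 ranged from 1.82 to 3.51 CPM in control and from 2.91 to 8.47 CPM in mutant livers, with a log2 value of 1.1 (edgeR adjusted p = 0.145). The ranges of both genes overlapped between the genotypes, and by library size alone hist1h2a8 was called.

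**Figure D3:**
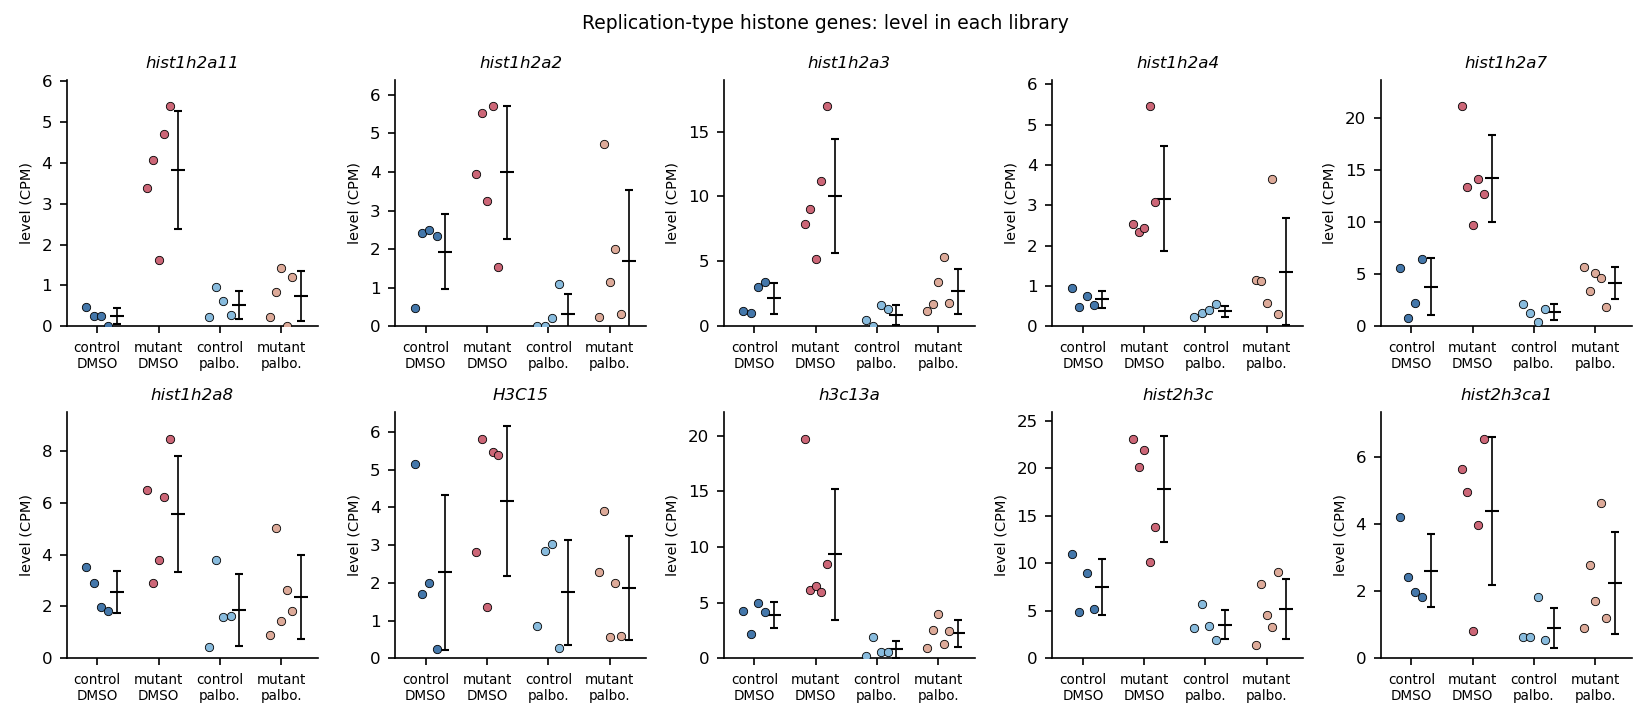
Level in CPM (vertical axes, each with its own scale) of the 10 replication-type histone genes in each library by group (horizontal axes); points are libraries and bars the mean ± SD. For hist1h2a7 the mutant DMSO libraries lie between 9.74 and 21.1 CPM and all other libraries at or below 6.49 CPM.

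Of the replication-type H3 genes, whose protein pairs with H4 in the nucleosome, hist2h3c and h3c13a rose in mutant livers in DMSO. hist2h3c (ENSDARG00000094154) was at 11, 4.86, 8.96 and 5.19 CPM in control and at 23.1, 20.1, 21.9, 10.2 and 13.9 CPM in mutant libraries, and the groups overlapped by 1 library of each. Its log2 fold change was 1.24 (SE 0.359, edgeR adjusted p = 0.0131), and it missed the threshold without control DMSO library 4 (1.1, edgeR adjusted p = 0.0597).

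The level of h3c13a (ENSDARG00000068941) was 4.21, 2.19, 4.98 and 4.16 CPM in control and 19.7, 6.11, 6.49, 5.95 and 8.47 CPM in mutant libraries. The groups did not overlap, and mutant library 1 was far above the rest. The log2 fold change was 1.26 (SE 0.443, edgeR adjusted p = 0.042); without mutant library 1 it was 0.79 (edgeR adjusted p = 0.285), and leaving out any 1 control DMSO library (edgeR adjusted p from 0.0575 to 0.111) or mutant library 5 (edgeR adjusted p = 0.0579) also ended the call. H3C15 (log2 value 0.84, edgeR adjusted p = 0.403) and hist2h3ca1 (0.72, edgeR adjusted p = 0.423) did not pass, with overlapping groups.

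**Figure D4:**
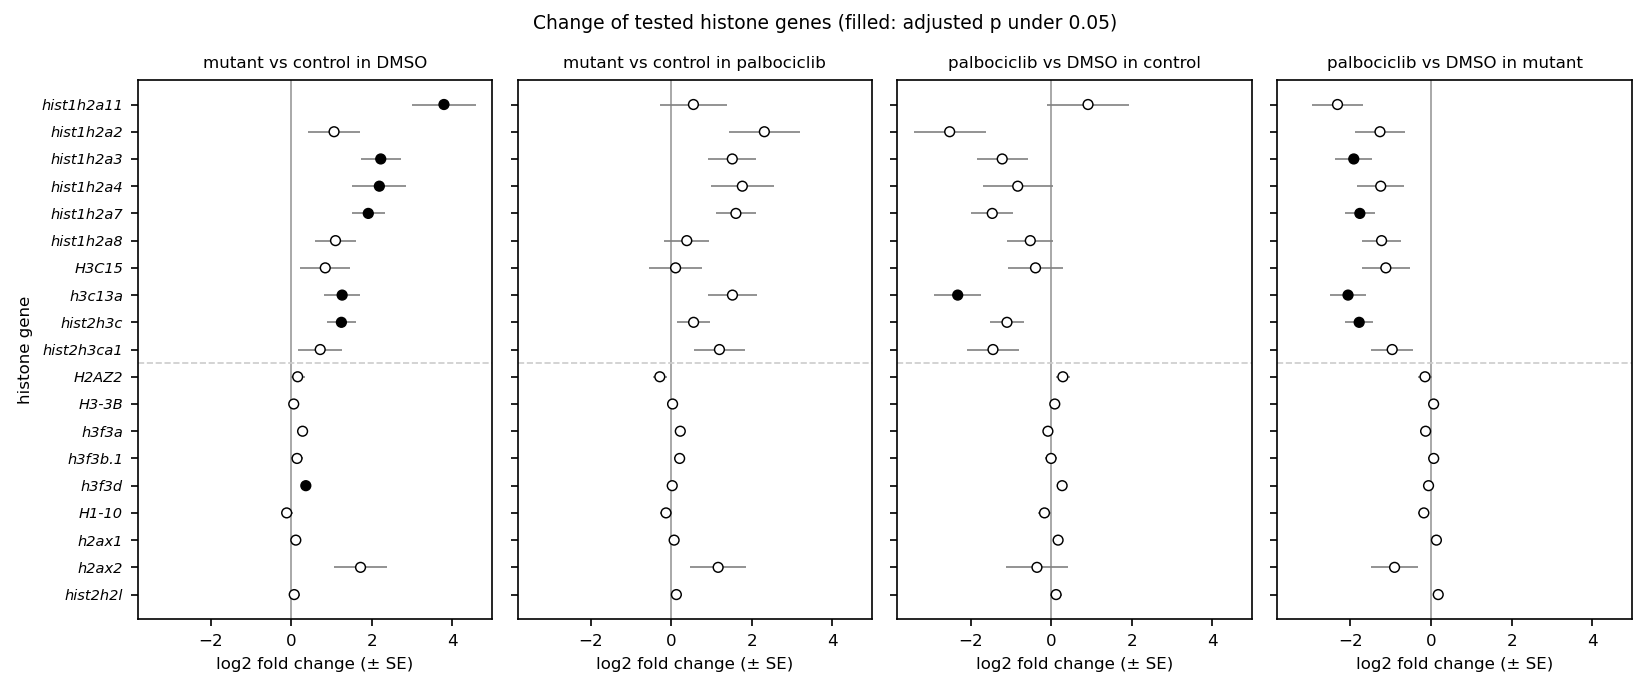
Log2 fold change ± SE (horizontal axes) of tested histone genes (vertical axis; replication-type genes above the dashed line) in the 4 pairwise comparisons; filled points passed the adjusted p threshold of 0.05. The replication-type genes lie to the right of 0 in both genotype comparisons, with medians of 1.25 and 1.36, and the variant genes lie close to 0 in all 4.

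Under palbociclib the genotype comparison called 0 of the 20 histone genes. Of all genes tested, 0.634% rose and 0.416% fell (1.05% called in either direction). DESeq2 also called 0 histone genes. In edgeR 6 histone genes, 5 of them replication-type, had an unadjusted p under 0.05, where 9.71% of all genes tested did. The replication-type estimates were all above 0, with a range of 0.11 to 2.31. Their median log2 fold change was 1.36, against 0.03 over all genes tested. Of these genes, hist1h2a4 had needed mutant palbociclib libraries, the higher side here, to enter the test, so its sign is a description. Leaving out 1 library reversed the sign of H3C15 in 4 of 18 fits and that of hist1h2a8 in 1. hist1h2a7 came closest, at 2.15, 1.26, 0.403 and 1.62 CPM in control and 5.70, 3.35, 5.13, 4.64 and 1.81 CPM in mutant libraries. Its log2 value was 1.61 (SE 0.496, edgeR adjusted p = 0.125), and only mutant library 5 fell within the control range. With the muscle share as a covariate hist1h2a7 was called, the only histone gene called in that setting. No histone gene had groups without overlap here, in either direction, against 1.91% of all genes tested for higher and 1.43% for lower mutant levels.

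The widest estimate in this comparison was that of hist1h2a2, 2.31 with an SE of 0.888 (edgeR adjusted p = 0.300), from 5 counts in all control and 29 in all mutant libraries. The log2 value was 1.77 for hist1h2a4 (edgeR adjusted p = 0.431), 1.52 for h3c13a (edgeR adjusted p = 0.326) and 1.52 for hist1h2a3 (edgeR adjusted p = 0.327). hist2h3ca1 (1.20), hist2h3c (0.56), hist1h2a11 (0.55), hist1h2a8 (0.39) and H3C15 (0.11) were not called either. The 4 control libraries together held 198 replication-type counts.

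The test of whether the mutant difference itself changed with palbociclib called 0 of 20 histone genes. Of all genes tested, 1.74% had a higher and 0.252% a lower effect in palbociclib (1.99% called in either direction). DESeq2 also called 0 histone genes. In edgeR 2 of the 20 histone genes had an unadjusted p under 0.05, where 13.3% of all genes tested did. The 2 were hist1h2a11, with a log2 difference between the mutant effects of -3.24 (SE 1.23, edgeR adjusted p = 0.184), and h3f3d, with -0.34 (SE 0.126, edgeR adjusted p = 0.183). hist1h2a11 had entered the test only with mutant DMSO libraries. Over the 10 replication-type genes the differences ran from -3.24 to 1.25 with a median of -0.55.

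In control livers the comparison of palbociclib with DMSO called 1 of 20 histone genes, h3c13a, which fell, where 4.33% of all genes tested fell and 1.38% rose (5.71% called in either direction). In palbociclib it was at 0.215, 1.89, 0.604 and 0.540 CPM, below all 4 control libraries in DMSO. The log2 fold change was -2.32 (SE 0.587, edgeR adjusted p = 0.0145). The call was lost without control DMSO library 3 (edgeR adjusted p = 0.0581) or control palbociclib library 1, 4 or 5 (edgeR adjusted p from 0.0547 to 0.0609), and with the muscle share as a covariate, where the log2 value was -1.14 (edgeR adjusted p = 0.821).

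In the same comparison 9 of the 10 replication-type estimates were below 0, with a median log2 fold change of -1.16 against -0.02 over all genes tested. The values were -2.52 for hist1h2a2 (edgeR adjusted p = 0.0849), -1.46 for hist1h2a7 (edgeR adjusted p = 0.0829), -1.44 for hist2h3ca1 (edgeR adjusted p = 0.186) and -1.1 for hist2h3c (edgeR adjusted p = 0.118). The values of hist1h2a3 (-1.21), hist1h2a4 (-0.83), hist1h2a8 (-0.52) and H3C15 (-0.39) were not called either. hist1h2a11 alone was above 0, at 0.92, from 4 counts in DMSO and 8 in palbociclib. The groups did not overlap for 2 histone genes that were lower, h3c13a and hist2h3ca1, and for 1 that was higher, h3f3d, against 5.55% and 3.87% of all genes tested. Of the muscle markers 10 of 10 rose in this comparison (median log2 0.32), where 1.38% of all genes tested rose. In mutants against controls in DMSO 10 of 10 rose (median log2 0.28), where 6.72% of all genes tested rose. In the same order 4 of 8 and 3 of 8 skin markers rose, and 3 of 4 nervous system markers in each. Of the exocrine pancreas markers 0 of 8 were called in either.

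In mutant livers the comparison of palbociclib with DMSO called 4 of 20 histone genes, all lower, where 0.499% of all genes tested fell and 0.0411% rose (0.540% called in either direction). All 4 were replication-type: the H3 genes hist2h3c and h3c13a and the H2A genes hist1h2a7 and hist1h2a3. All 10 replication-type estimates were below 0, with a median log2 fold change of -1.52 and a range of -2.32 to -0.96, against a median of -0.0031 over all genes tested. Of the 10, hist1h2a11, hist1h2a2, hist1h2a3, hist1h2a4, H3C15 and hist2h3ca1 had entered the test only with mutant DMSO libraries, the higher side here. Their signs and the median are therefore descriptions. The groups did not overlap for 4 histone genes, all lower in palbociclib, against 1.54% of all genes tested for lower and 0.751% for higher levels. The 4 calls include hist1h2a3 and these 4 genes include hist1h2a11, which both entered the test in that way.

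In mutant palbociclib libraries hist2h3c was at 1.37, 7.81, 4.56, 3.32 and 9.06 CPM, all below the 10.2 CPM of the lowest mutant library in DMSO. Its log2 fold change was -1.78 (SE 0.352, edgeR adjusted p = 0.00813), and the call held without each library in turn. hist1h2a7, at 1.81 to 5.70 CPM against 9.74 to 21.1 CPM, fell by 1.77 on the log2 scale (SE 0.378, edgeR adjusted p = 0.012). That call was lost without mutant DMSO library 1 (edgeR adjusted p = 0.0982) or mutant palbociclib library 5 (edgeR adjusted p = 0.0532).

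h3c13a was at 0.912, 2.51, 3.99, 1.33 and 2.42 CPM in mutant palbociclib libraries, below all 5 mutant libraries in DMSO, with a log2 fold change of -2.06 (SE 0.444, edgeR adjusted p = 0.0122). Without mutant DMSO library 1, the one that stood apart, it was -1.57 (edgeR adjusted p = 0.214), and without mutant palbociclib library 1 or 4 the adjusted p in edgeR was 0.0733 and 0.0508. hist1h2a3 was at 1.14, 1.67, 3.42, 5.30 and 1.81 CPM, and library 4 overlapped the DMSO group. Its log2 fold change was -1.92 (SE 0.460, edgeR adjusted p = 0.0353), and leaving out 1 library ended the call for 8 of the 10 mutant libraries (edgeR adjusted p from 0.0551 to 0.181).

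hist1h2a11 fell outside the calls at -2.32 (edgeR adjusted p = 0.0952), although its 5 palbociclib libraries, at 0 to 1.42 CPM, all lay below the DMSO libraries, and DESeq2 called it. The other replication-type values were -1.27 for hist1h2a2, -1.25 for hist1h2a4, -1.23 for hist1h2a8, -1.12 for H3C15 and -0.96 for hist2h3ca1, none called. Both palbociclib comparisons share their DMSO libraries with a genotype comparison, so their values are not independent of it.

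The variant genes moved less. H3.3, the replacement form of H3 that is laid down outside replication, comes here from 4 genes. The most abundant in reads, H3-3B, was at 309.6 ± 23.0 (SD, n = 4), 322.7 ± 30.6 (SD, n = 5), 329.6 ± 23.0 (SD, n = 4) and 337 ± 10.2 CPM (SD, n = 5) in control DMSO, mutant DMSO, control palbociclib and mutant palbociclib libraries, and was called in no comparison.

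Only h3f3d (ENSDARG00000045248) of the variant genes was called, in mutant against control livers in DMSO; by library size alone H2AZ2, H3-3B, h3f3a and h3f3b.1 were called there too. h3f3d was at 216, 231, 188 and 219 CPM in control and at 257, 274, 286, 267 and 287 CPM in mutant libraries, with no overlap. The log2 fold change was 0.36 (SE 0.0899, edgeR adjusted p = 0.00309), and with the muscle share as a covariate it was 0.13 (edgeR adjusted p = 0.616). In palbociclib its levels were 239.6, 239, 255 and 299 CPM in control and 276, 239.8, 279, 279 and 239 CPM in mutant libraries, which overlapped. Palbociclib against DMSO in control livers gave 0.27 (edgeR adjusted p = 0.0743), also with no overlap between the groups.

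The remaining H3.3 genes were called in no comparison. h3f3a averaged 103, 125, 97.3 and 114 CPM and h3f3b.1 averaged 54.3, 60.1, 54.2 and 62.8 CPM in control DMSO, mutant DMSO, control palbociclib and mutant palbociclib livers. H2AZ2, which encodes the variant H2A.Z found near active promoters, averaged 24.5, 27.2, 29.9 and 24.6 CPM in that order and was not called either. All 3 genes had overlapping groups in DMSO between the genotypes.

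The linker histone gene H1-10, whose protein binds the DNA between nucleosomes, was called in no comparison. It averaged 42.1, 38.8, 37.5 and 34.3 CPM in control DMSO, mutant DMSO, control palbociclib and mutant palbociclib livers.

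Summed over the 7 variant genes, the level was 954 ± 59 (SD, n = 4), 1024 ± 62.2 (SD, n = 5), 1021 ± 54.2 (SD, n = 4) and 1032 ± 30.9 CPM (SD, n = 5) in control DMSO, mutant DMSO, control palbociclib and mutant palbociclib libraries. This near-equality depends on the scaling: by library size alone the control and mutant sums in DMSO were 804 and 1099 CPM, and the median of all genes in that comparison moved from 0.06 to 0.42. On that scale the replication-type median was 1.61 and the variant median 0.49.

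**Figure D5:**
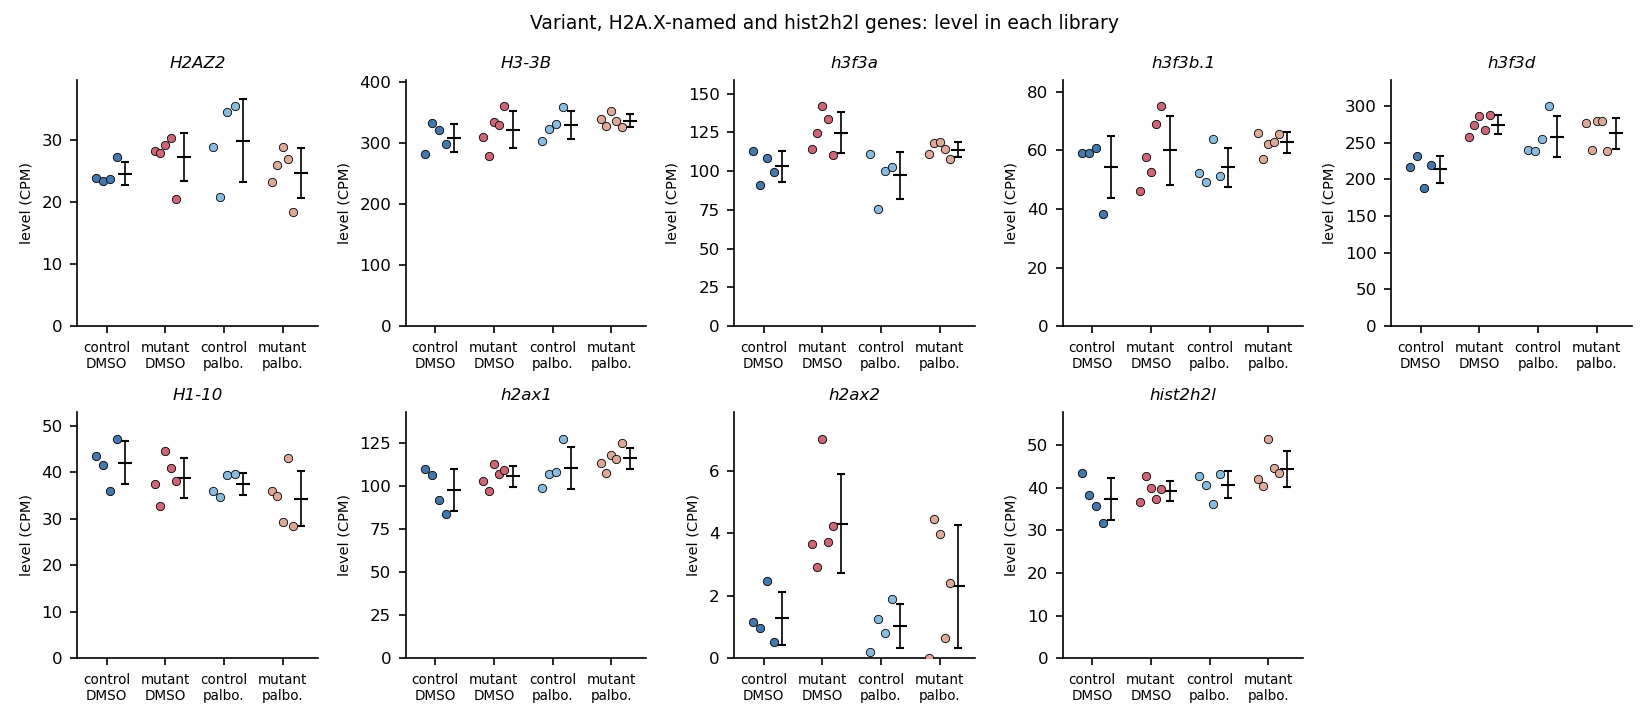
Level in CPM (vertical axes, each starting at 0 with its own scale) of variant genes, h2ax1, h2ax2 and hist2h2l in each library by group (horizontal axes); points are libraries and bars the mean ± SD. The mutant DMSO libraries of h3f3d lie at 257 to 287 CPM, above the control DMSO libraries at 188 to 231 CPM.

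Of the genes kept outside the replication-type and variant classes, h2ax2 came closest to a call. h2ax2 (ENSDARG00000086552), an H2A gene named for the form that is phosphorylated at DNA breaks, was at 1.17, 0.971, 2.49 and 0.519 CPM in control and at 3.66, 2.91, 7.04, 3.72 and 4.23 CPM in mutant libraries in DMSO. The groups did not overlap and the log2 value of 1.72 (SE 0.654) missed the threshold (edgeR adjusted p = 0.0635; DESeq2 called it). In palbociclib it ranged from 0.215 to 1.89 CPM in control and from 0 to 4.46 CPM in mutant livers. h2ax1 averaged 98.0, 106, 110.6 and 116 CPM in control DMSO, mutant DMSO, control palbociclib and mutant palbociclib livers. hist2h2l averaged 37.4, 39.3, 40.7 and 44.5 CPM in the same order, and neither was called in any comparison. By library size alone h2ax1, h2ax2 and hist2h2l were called in mutants against controls in DMSO.

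In RefSeq's gene order for the assembly GRCz12tu, which holds 17 of the 21 symbols and may not be the annotation the authors used, 8 of the 10 replication-type genes lay in groups among genes that mostly carry placeholder names. hist2h3c, h3c13a, hist1h2a4 and hist1h2a3 lay on 1 chromosome and hist1h2a11, hist1h2a7, hist2h3ca1, hist1h2a2 and h2ax2 on another, while h2ax1 and hist2h2l were immediate neighbours elsewhere. The first group summed to 14.2 ± 4.29 (SD, n = 4) and 40.4 ± 8.0 CPM (SD, n = 5) in control and mutant livers in DMSO and to 5.59 ± 1.77 and 11.5 ± 3.89 CPM in palbociclib. The second group summed to 9.84 ± 2.28 and 30.7 ± 5.48 CPM in DMSO and to 4.14 ± 0.918 and 11.1 ± 4.04 CPM in palbociclib. Both groups of genes were highest in mutant livers in DMSO and lowest in control livers in palbociclib, and their means in control DMSO and mutant palbociclib livers differed by less than an SD.

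Genes that make, carry or use histones were counted from lists of related genes. Of 24 tested genes for histone RNA supply, which include the stem-loop binding protein slbp and the histone gene activator npat, 0 rose and 1 fell in mutant livers in DMSO, where 6.72% of all genes tested rose and 10.4% fell. That gene was CTIF, a translation factor that acts with the nuclear cap-binding complex (log2 fold change -1.24, edgeR adjusted p = 0.000598). slbp averaged 5.84, 7.39, 8.11 and 7.78 CPM and npat averaged 13.6, 15.1, 13.7 and 14.5 CPM in control DMSO, mutant DMSO, control palbociclib and mutant palbociclib livers, and neither was called in any comparison.

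Of 49 tested histone chaperones and exchange factors 2 rose and 1 fell in mutant livers in DMSO, against 6.72% of all genes tested that rose and 10.4% that fell. RUVBL1, an ATPase of chromatin remodelling complexes that exchange H2A.Z, rose by 0.81 on the log2 scale (edgeR adjusted p = 0.00253), and 1 of the gene IDs with the symbol SET, a histone chaperone, rose by 0.29 (edgeR adjusted p = 0.0415). The importin gene ipo4, whose protein brings H3 and H4 into the nucleus, fell by 0.49 (edgeR adjusted p = 0.0283). Leaving out 1 library ended the call of SET in 8 of 18 fits (edgeR adjusted p up to 0.136) and that of ipo4 in 5 of 18 (edgeR adjusted p up to 0.106). The call of SET was also lost with RLE size factors, without the filter, with the replicate block and with only the 2 groups fitted, and that of ipo4 by library size alone and with only the 2 groups fitted. In control livers CABIN1, which takes part in H3.3 deposition, was lower in palbociclib than in DMSO, with a log2 fold change of -0.87 (edgeR adjusted p = 0.0459), the only call of the 3 lists in that comparison. That call was lost in 13 of 18 fits that left out 1 library (edgeR adjusted p up to 0.183), and with RLE size factors (edgeR adjusted p = 0.051), by library size alone, without the filter, with the muscle covariate, with the replicate block and with only the 2 groups fitted.

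Of 55 tested DNA replication genes 4 rose and 1 fell in mutant livers in DMSO, against the same 6.72% and 10.4% of all genes tested, with a median log2 fold change of 0.25. Among them 1 of the gene IDs with the symbol RRM2, a subunit of the enzyme that makes deoxyribonucleotides, rose by 1.52 (edgeR adjusted p = 0.00233), from 2.96 to 8.60 CPM between the group means. PCNA, the sliding clamp of the replication fork, rose by 0.41 (edgeR adjusted p = 0.00394) and the helicase subunit MCM4 by 0.41 (edgeR adjusted p = 0.00661). None of the calls of these lists held with the muscle share as a covariate.

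Between palbociclib and DMSO no replication gene was called in either genotype by edgeR (0 of 55). Of all genes tested, 5.71% were called in control and 0.540% in mutant livers. At an unadjusted p under 0.05 in edgeR there were 4 of the 55 in control and 3 in mutant livers. Of all genes tested, 20.5% and 8.81% were under that threshold in the same order. The summed level of the list was 904 ± 65.4 (SD, n = 4), 1087 ± 35.7 (SD, n = 5), 934 ± 64.6 (SD, n = 4) and 1023 ± 67.0 CPM (SD, n = 5) in control DMSO, mutant DMSO, control palbociclib and mutant palbociclib livers. The mean in mutants in palbociclib was 0.94 of that in mutants in DMSO for this list and 0.320 for the replication-type histones.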

How the data were processed

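RNA of pooled larval zebrafish livers was measured in 18 ribosome-depleted, randomly primed, paired-end libraries. The deposited values are raw counts per gene ID, not normalized by the authors. FastQC 0.11.5 and Trimmomatic 0.36 are named in the submitters' processing notes. Not given in the sources used here: aligner, counting program, strand setting, build and annotation. No pair of libraries was identical (0 pairs).

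Symbols came from a reference table (26269 of 32105 gene IDs). Genes were filtered with filterByExpr (about 2.79 CPM), which left 17048 genes, 99.6% of the counts. They were fitted in edgeR 4.0.16 (R 4.3.3; TMM factors 0.762 to 1.16, robust quasi-likelihood, 1 mean per group, all 18 libraries), with 5 contrasts adjusted by Benjamini-Hochberg; the code was tested on simulated data. Levels are counts per 1000000 of TMM-scaled library size, not divided by transcript length, so they compare libraries, not genes. DESeq2 1.42.0 was an alternative.

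The members, lists and rules were chosen with earlier results of these data known. Values of 1 variant gene are not reported here. Named were up to 12 called histone genes per comparison, the 3 most abundant of each class, the variants, the 3 smallest adjusted p of each list, slbp, npat and PCNA; h2ax2 and other uncalled members were added after their values were seen. Whether replicates came from separate clutches is not labelled, so the tests take in only the spread between these pools, which may be technical. Libraries of the same replicate number did not deviate together, which cannot show whether they shared a clutch or day.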

Additional observations from a re-analysis of the deposited data

Results flagged for a closer look

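Dixon's test marked 10 of 96 sets of libraries (a gene, or the sum of a class, within a group). Levels are in CPM. Its chance rate of about 1 in 20 holds for normally distributed values, which levels from few counts need not be, so the 2 rates cannot be compared. In mutant DMSO livers library 1 held 19.7 for h3c13a (others 5.95 to 8.47), library 4 held 5.46 for hist1h2a4 (others 2.33 to 3.08) and library 5 held 20.4 for H2AZ2 (others 27.9 to 30.3). In mutant palbociclib livers library 4 held 3.65 for hist1h2a4 (others 0.302 to 1.14). In control DMSO livers library 4 held 38.4 for h3f3b.1 (others 59.0 to 60.7) and 27.3 for H2AZ2 (others 23.3 to 23.9), and library 1 held 0.468 for hist1h2a2 (others 2.34 to 2.49). In control palbociclib livers library 4 held 1.81 for hist2h3ca1 (others 0.540 to 0.645). h2af1al was read in control DMSO library 3 (1.49) and mutant DMSO library 1 (1.13) and at 0 in the rest of both groups. A single library with reads among libraries at 0 is always marked. In both palbociclib groups h2af1al was at 0 throughout and could not be marked.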

How the results depend on the processing

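No called histone value changed sign in any setting run. The number of histone genes called in mutants against controls in DMSO was 7, and 15 (all higher) by library size alone; leaving out 1 library gave 4 to 8. Under palbociclib the muscle covariate gave 1 (hist1h2a7) in place of 0, and leaving out 1 library 0 to 0. For palbociclib in controls the count of 1 became 2 by library size alone and 0 with the muscle covariate or the replicate block, and 0 to 3 without 1 library. For palbociclib in mutants 4 became 1 to 4 without 1 library. The pathway lists had 9 calls in mutants in DMSO, 50 by library size alone, 0 with the muscle covariate and 6 to 16 without 1 library. For palbociclib in controls their 1 call became 0 with RLE size factors, without the filter, with the muscle covariate, with the replicate block or with only the 2 groups fitted, 5 by library size alone, 2 with DESeq2 and 0 to 4 without 1 library. Their interaction count of 0 became 3 by library size alone, 1 with DESeq2 and 0 to 2 without 1 library. The causes were not tested.

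By library size alone the variant sum was 804 in control DMSO, 1099 in mutant DMSO and 1100.4 CPM in mutant palbociclib livers. The sum of the genes outside the replication-type and variant classes was 116, 160.7 and 174 CPM in the same order. Over all tested histone genes and the 5 comparisons there were 100 values. Leaving out 1 library changed a sign 49 times and the other settings 28 times, never for a called value. For replication-type genes and h2ax2 in the pairwise comparisons, the changes without 1 library were in uncalled values. Between genotypes in palbociclib they were in hist1h2a8 (-0.10 to 0.93) and H3C15 (-0.33 to 0.56). For palbociclib in controls they were in h2ax2 (-0.81 to 0.16) and H3C15 (-0.84 to 0.39).

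Libraries of the same number did not deviate together (24 pairs, r from -0.178 to 0.0539, 0 over 0.1; 1 of 18 libraries was closest to its own number). With the replicate block, the calls of h3c13a were lost in mutants in DMSO (1.25, edgeR adjusted p = 0.0821) and for palbociclib in controls (-2.21, edgeR adjusted p = 0.0653). Replication-type counts per library ran from 36 to 343.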
